A study of Mus musculus with 50 samples.

Results

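The genes described here are 10 enzyme genes of serine, asparagine and one-carbon metabolism, Phgdh, Psat1, Psph, Shmt1, Shmt2, Mthfd2, Asns, Pck2, Bcat1 and Gcat. The rule that picks them is a list of names, drawn up with earlier results of these data known. They are 10 of the 55011 gene rows of the count table, and all 10 passed the filter on low counts in every test. RNA-seq was done on 50 libraries in 16 groups, each made from 500 to 1000 mouse CD4 T cells that were sorted and then sorted again. 18 libraries come from the thymus. They hold 2 kinds of regulatory T (Treg) cell progenitor, P2 (CD4+ CD8- CD25- Foxp3+) and P1 (CD4+ CD8- CD25+ Foxp3-), at days 5, 12 and 49 after birth (D5, D12 and D49), with 3 libraries per group. The other 32 libraries come from Treg cells sorted as CD4+ Foxp3-GFP+ from visceral adipose tissue (VAT), ear skin, liver, lung and spleen at week 20, from a DT-labelled and a PBS-labelled arm with 3 libraries of each arm per tissue and 4 in VAT.

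Every mouse was male and every library has the genotype label WT. The thymus mice are of the strain B6.Cg-Foxp3tm1Kuch/J, a Foxp3-GFP reporter. All tissue mice, of both arms, are labelled with the allele Foxp3tm3(HBEGF/GFP)Ayr on the background B6.129(Cg), in which Foxp3-expressing cells carry GFP and HBEGF, the diphtheria toxin receptor (DTR). The design text says that DTR+ and DTR- littermates both received diphtheria toxin (DT) at week 12 on 3 consecutive days, which depletes Treg cells that carry the receptor, and that tissues were taken after 8 to 9 weeks. The titles call the control arm PBS, so the arms are named here by their titles alone, and whether a given mouse was depleted cannot be told from the labels. No label states that different mice stand behind the libraries of one group, and p-values therefore reflect library-to-library spread, part or all of which may be technical. Libraries of thymus and tissues differ in strain, age and sort, so their levels are given side by side with no test.

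As background, proliferating T cells draw on this pathway for nucleotide synthesis. PHGDH, PSAT1 and PSPH make serine from a glycolytic intermediate in that order. SHMT1 in the cytosol and SHMT2 in mitochondria split serine into glycine and a one-carbon unit carried by folate, and MTHFD2 oxidises that unit in mitochondria. These units are used to build purines and thymidylate. ASNS makes asparagine from aspartate with glutamine as nitrogen donor. PCK2 is the mitochondrial form of phosphoenolpyruvate carboxykinase, BCAT1 transfers the amino group of leucine, isoleucine and valine in the cytosol, and GCAT forms glycine from a threonine breakdown product in mitochondria. Many of these genes are known targets of ATF4, the transcription factor of the amino acid stress response, which binds a composite C/EBP-ATF response element.

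The core of that element was searched for in the promoters, taken from RefSeq (GRCm38.p6, the assembly behind mm10) as the 250 bases before and 50 bases after each annotated start. All 10 genes matched an entry, with 12 windows in all. The letters TGATGNAA, on either strand, occurred in the windows of Asns and Pck2 and in no other of the 12, against 3.97% of all 32851 promoters. Both windows are shown because Asns and Pck2 moved in opposite directions with age in the thymus and were both higher in Treg cells of PBS-labelled VAT than of spleen. The capitals mark the match, which reads along the gene strand from position -23 in Asns and on the opposite strand at position -103 in Pck2, counted from the start.
Asns, chr6:7693160-7693459, minus strand: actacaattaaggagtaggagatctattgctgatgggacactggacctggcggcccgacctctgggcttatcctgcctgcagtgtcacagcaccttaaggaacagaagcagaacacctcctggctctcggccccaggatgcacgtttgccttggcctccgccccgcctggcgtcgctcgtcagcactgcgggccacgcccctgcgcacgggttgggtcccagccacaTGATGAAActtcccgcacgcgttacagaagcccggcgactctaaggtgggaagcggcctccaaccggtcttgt
Pck2, chr14:55540016-55540315, plus strand: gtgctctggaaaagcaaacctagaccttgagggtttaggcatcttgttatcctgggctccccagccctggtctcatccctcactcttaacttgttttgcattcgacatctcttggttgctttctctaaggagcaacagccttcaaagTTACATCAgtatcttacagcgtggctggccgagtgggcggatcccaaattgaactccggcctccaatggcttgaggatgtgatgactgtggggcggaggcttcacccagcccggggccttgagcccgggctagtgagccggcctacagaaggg
The E-box CACGTG, a palindrome bound by MYC and related factors, occurred in the Gcat window and in no other of the 12, against 7.15% of all promoters. A match describes the letters of a window and is not a measured binding site.

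Total counts ran from 2521078 to 6981037 per library. Levels are given as CPM, counts scaled to library size by the TMM method, and the tests are edgeR quasi-likelihood tests over all genes with Benjamini-Hochberg adjusted p, called below 0.05. Foxp3 averaged 282, 769 and 377 CPM in P2 at D5, D12 and D49, against 11.2, 8.01 and 13.9 CPM in P1, and Il2ra, which encodes CD25, averaged 14.9 to 35.4 CPM in P2 and 118 to 132 CPM in P1, as the sort gates require. Tissue Treg groups averaged 254 to 405 CPM of Foxp3. Some libraries stood apart. After thinning to an equal depth, 24441 to 29521 genes were detected in the P1 libraries at D12 and 27185 and 26894 in replicates 2 and 3 of P2 at D49, against 16813 to 19052 in the other 13 thymus libraries. Replicate 1 of PBS-labelled spleen had 135 CPM of Foxp3, against 299.7 and 328 CPM in the other 2. Replicate 7 of DT-labelled VAT held 566 CPM of 6 fibroblast markers, led by Col3a1, against 2.42 to 6.99 CPM in the other 3, and 129.6 CPM of macrophage and monocyte markers, against 2.204 to 16.6 CPM. In PBS-labelled lung, replicate 2 had 30868 detected genes and 21.1 CPM of fibroblast markers, against 19394 and 20974 genes and 1.39 and 6.71 CPM in replicates 1 and 3, and replicate 1 had 72.1 CPM of macrophage and monocyte markers, against 17.8 and 6.06 CPM in replicates 2 and 3. Values without these libraries, or for P1 at D12 with a covariate for the counts of little-expressed genes (the low-gene share), stand beside a called result where they end the call or change its size by much. Levels are scaled over all 50 libraries and fold changes over the libraries and genes of each fit, so a small fold change can differ in sign from the levels. Over the 10 genes and 22 comparisons of 2 groups, 8 of 220 pairs changed between overlap and no overlap under the scaling of the fit. Shmt1 overlaps Smcr8 (62.2 CPM on average) and Psph overlaps Cct6a (233 CPM), both on the opposite strand. Whether counting used the strand is not given in the sources used here, so the levels of Shmt1 and Psph are uncertain to that extent.

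In the thymus most of these enzymes were lower in P2 than in P1 and fell with age in both. Of the 10 genes, 0 were higher and 6 lower in P2 than in P1 at D5 (of all 14696 genes tested, 15.2% called, 6.79% higher and 8.40% lower), 0 higher and 8 lower at D12 (41.4% called, 17.6% higher and 23.8% lower), and 0 higher and 7 lower at D49 (29.5% called, 16.6% higher and 12.9% lower). Psat1, Phgdh, Shmt1, Shmt2 and Bcat1 were lower in P2 at all 3 ages. At D12 these 5 calls held with the low-gene covariate (adjusted p up to 0.00612), while those of Asns, Psph and Mthfd2 did not. Leaving out replicates 2 and 3 of P2 at D49 leaves replicate 1 alone in that group. Its spread is then not measured, so for that fit fold changes alone are given below. The median log2 fold change of the 10 genes, P2 over P1, was -1.13 at D5, -1.18 at D12 and -1.69 at D49, beside -0.0027, -0.080 and 0.10 over all genes tested. The summed level of the 10 genes was 637 ± 41.6 CPM in P2 and 1389 ± 34.2 CPM in P1 at D5, and 296 ± 33.7 CPM in P2 and 824 ± 38.2 CPM in P1 at D49 (SD, n = 3 each).

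From D5 to D49, 8 of the 10 genes fell and 1, Pck2, rose in P2 (25.8% called, 14.7% higher and 11.1% lower), and 7 fell and Pck2 rose in P1 (10.6% called, 4.06% higher and 6.50% lower). Leaving out 1 library lost the P1 calls of Shmt1 in 5 of 6 fits, of Mthfd2 (adjusted p up to 0.0702) and Shmt2 in 2 each and of Phgdh in 1. It lost the P2 calls of Shmt2 in 4 of 6 fits, of Shmt1 in 2 and of Bcat1 in 1. With replicate 1 alone in P2 at D49, calls are not counted. The median log2 fold change of the 10 genes, D49 over D5, was -1.12 in P2 and -0.67 in P1, beside 0.080 and 0.00 over all genes. At D12 against D5, 0 of 10 were higher and 3 lower in P2 (5.16% called, 1.81% higher and 3.35% lower), and 1 was higher and 3 lower in P1 (18.3% called, 10.1% higher and 8.16% lower). At D49 against D12, 1 was higher and 2 lower in P2 (15.0% called, 9.02% higher and 5.97% lower), and 1 was higher and 4 lower in P1 (23.7% called, 10.2% higher and 13.5% lower). With the low-gene covariate 2 of the 10 were called in P1 in each of these steps, beside a share of all genes not given here. In the test of whether the change from D5 to D49 differed between P2 and P1, 0 of the 10 genes were called (0.374% of all genes called). An unadjusted p below 0.05 was reached by 4 of the 10, but the share of all genes at that threshold is not given, so this count says nothing of the 10 as a group. DESeq2 called 1 of the 10 in that test, beside a share of all genes not given here.

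The sum of 27 cell cycle genes, such as those of DNA replication and mitosis, moved the same way. All 27 fell from D5 to D49 in both progenitors, and 13, 27 and 22 were lower in P2 than in P1 at D5, D12 and D49. Their sum was 5384 to 5636 CPM in P2 and 8669 to 9397 CPM in P1 at D5, 1866 to 2467 CPM in P2 and 5071 to 6543 CPM in P1 at D12, and 954 to 1119 CPM in P2 and 2429 to 2815 CPM in P1 at D49, with no overlap between neighbouring ages or between P2 and P1 of an age. Sums of other marker lists also separated the progenitors at each age. Immature thymocyte markers, mainly Cd8b1, summed to 29.6 to 55.0 CPM in P2 and 95.3 to 104 CPM in P1 at D49, and B cell markers, mainly Ighm, to 219.6 to 248 CPM in P2 and 111 to 126 CPM in P1. Endothelial markers, mainly Pecam1, summed to 289 to 321 CPM in P2 and 223 to 248 CPM in P1 at D49. The part of these sums in the results on the 10 genes was not tested. Over the 6 thymus group means, which share normalisation and age order, the log2 level of the 10 genes had a Pearson correlation with the mean of the cell cycle genes from 0.71 for Bcat1 to 0.96 for Asns, except Pck2 at -0.84. In bulk libraries, fewer cells that express a gene and less of its RNA per cell cannot be told apart.

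**Figure D1:**
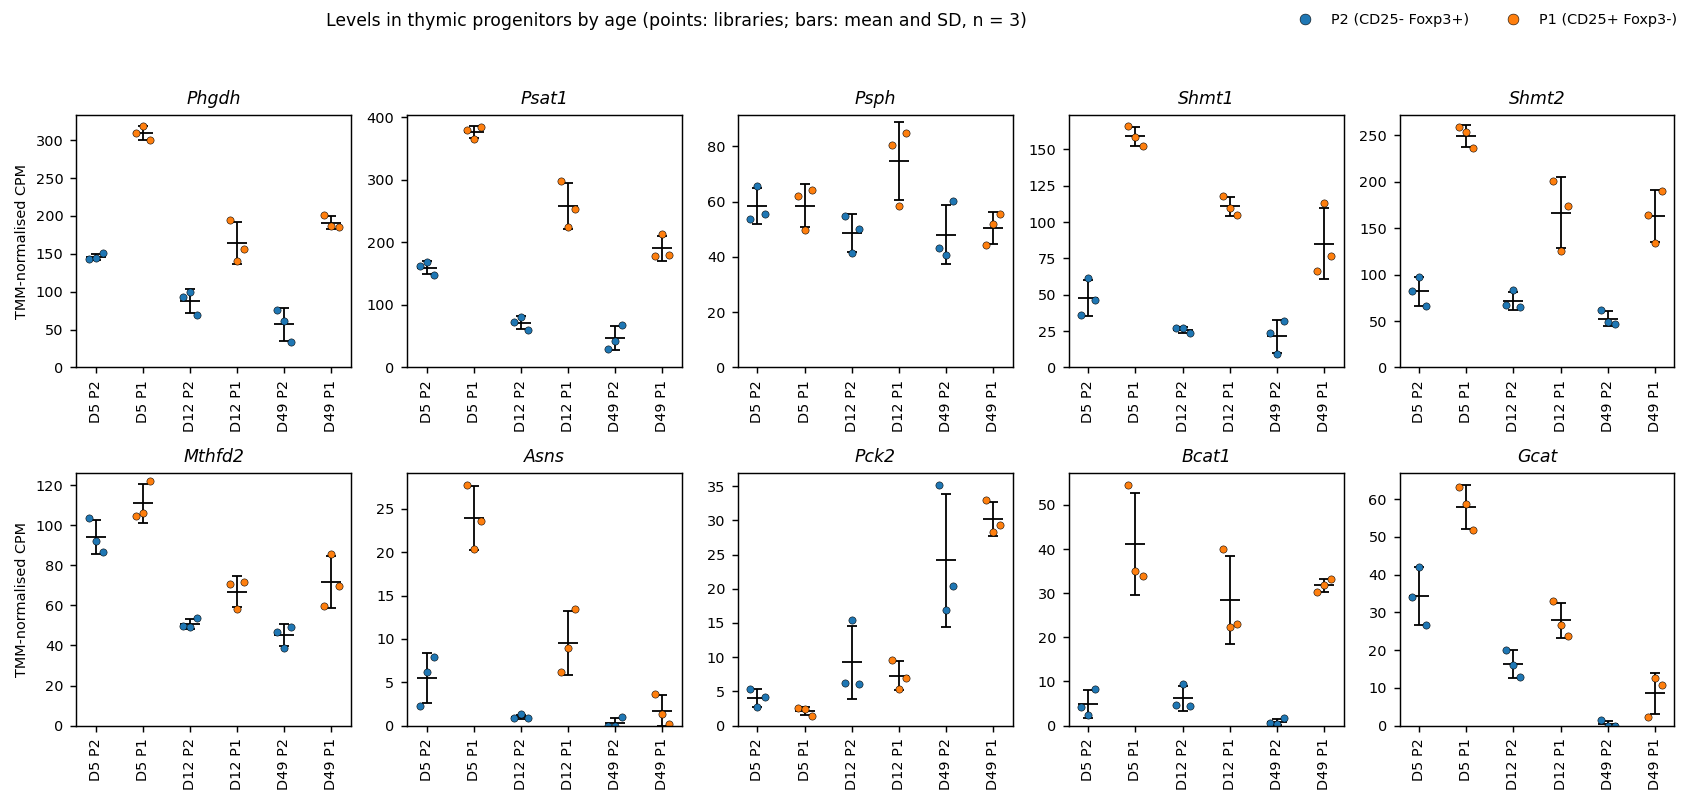
TMM-normalised CPM (vertical axis, linear from 0) of the 10 genes in each of the 18 thymus libraries, by age with P2 left of P1. Points are libraries and bars the mean and SD of 3. Phgdh, Psat1, Shmt1, Shmt2 and Bcat1 lie lower in P2 at each age, and Pck2 is highest at D49.

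The serine synthesis genes Phgdh and Psat1 were the highest of the 10 per kilobase of exon in P1 at D5. Phgdh (chr3:98313170-98339990, mm10), which encodes the first enzyme of serine synthesis, had 143, 144 and 151 CPM in P2 at D5, 93.3, 100.1 and 69.8 CPM at D12 and 76.5, 60.7 and 33.2 CPM at D49. In P1 it had 309.9, 319 and 301 CPM at D5, 195, 140.3 and 157 CPM at D12 and 201, 186 and 186 CPM at D49. No P2 library reached the lowest P1 library of its age. The log2 fold change of Phgdh, P2 over P1, was -1.05 ± 0.17 (SE, adjusted p = 0.00018) at D5, -1.03 ± 0.17 (SE, adjusted p = 0.000112) at D12 and -1.60 ± 0.18 (SE, adjusted p = 1.93e-06) at D49. From D5 to D49 Phgdh changed by -1.26 ± 0.18 (SE, adjusted p = 3.56e-05) in P2 and -0.71 ± 0.17 (SE, adjusted p = 0.00835) in P1 on the log2 scale, and the P1 change was not called without replicate 3 of D49 (adjusted p = 0.0514). In P1 the log2 fold change between D5 and D12 was -0.80 ± 0.17 (SE, adjusted p = 0.00452), and was 0.092 ± 0.17 (SE, adjusted p = 0.735) between D12 and D49. With the low-gene share, which is high in P1 at D12, as a covariate, the first of these was -0.45 (adjusted p = 0.175) and the second -0.26 (adjusted p = 0.435). With replicate 1 alone in P2 at D49, Phgdh had -0.95 with age in P2 and -1.30 against P1.

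Psat1 (chr19:15904678-15947337), the aminotransferase of the second step, also lay lower in P2 at each age. It had 162, 168 and 148 CPM in P2 at D5, 73.4, 81.0 and 60.4 CPM at D12 and 29.8, 42.7 and 67.8 CPM at D49. Its P1 levels were 379, 365 and 384 CPM at D5, 298, 224 and 253 CPM at D12 and 179, 213 and 179.6 CPM at D49. P2 and P1 did not overlap at any age, and D49 lay below D5 in both. Its log2 fold change, P2 over P1, was -1.21 ± 0.20 (SE, adjusted p = 0.000257) at D5, -1.98 ± 0.21 (SE, adjusted p = 5.53e-07) at D12 and -1.81 ± 0.22 (SE, adjusted p = 4.18e-06) at D49. From D5 to D49 it fell by 1.59 ± 0.22 (SE, adjusted p = 1.99e-05) in P2 and by 0.99 ± 0.20 (SE, adjusted p = 0.00221) in P1 on the log2 scale. The step from D12 to D49 in P1, -0.57 ± 0.20 (SE, adjusted p = 0.0466), was lost when any 1 of its 6 libraries was left out (adjusted p = 0.0639 to 0.144) and with the low-gene covariate (adjusted p = 0.795). With replicate 1 alone in P2 at D49 the Psat1 values were larger in size, -2.44 with age in P2 and -2.66 against P1.

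Psph (chr5:129765558-129787449), the phosphatase of the last step, behaved otherwise. Its group means lay between 48.0 and 74.7 CPM in the thymus. It was called lower in P2 than in P1 at D12, with 54.8, 41.3 and 50.1 CPM in P2 and 80.5, 58.5 and 85.0 CPM in P1 and a log2 fold change of -0.74 ± 0.19 (SE, adjusted p = 0.00396). At D5 the log2 fold change was 0.027 ± 0.19 (SE, adjusted p = 0.969) and at D49 0.12 ± 0.19 (SE, adjusted p = 0.67), with overlapping libraries. On the scaling of that fit Psph averaged 56.1 ± 15.9 CPM in P2 and 51.7 ± 5.54 CPM in P1 at D49, and on the scaling over all libraries 48.0 ± 10.6 CPM in P2 and 50.5 ± 5.72 CPM in P1 (SD, n = 3 each), so its direction there is not determined. Beside the D12 result, the 3 P1 libraries at D12 are those with many detected genes, and when low-gene share was added as a covariate the adjusted p was 0.0668. From D5 to D49 Psph was not called in P2, with a log2 fold change of -0.13 ± 0.19 (SE, adjusted p = 0.675), or in P1, with -0.22 ± 0.19 (SE, adjusted p = 0.535).

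Both serine hydroxymethyltransferase genes were lower in P2 at each age. Shmt1 (chr11:60788104-60811718) had 36.1, 61.2 and 46.3 CPM in P2 at D5, 27.3, 26.9 and 23.6 CPM at D12 and 23.5, 9.18 and 31.8 CPM at D49. In P1 it had 166, 158 and 153 CPM at D5, 118, 109.6 and 105 CPM at D12 and 66.0, 113 and 76.8 CPM at D49. P2 lay wholly below P1 at each age. The log2 fold change of Shmt1, P2 over P1, was -1.70 ± 0.27 (SE, adjusted p = 0.000133) at D5, -2.23 ± 0.28 (SE, adjusted p = 4.24e-06) at D12 and -1.78 ± 0.29 (SE, adjusted p = 0.000119) at D49. With age, D49 over D5, it was -0.98 ± 0.29 (SE, adjusted p = 0.0181) in P2 and -0.90 ± 0.26 (SE, adjusted p = 0.0286) in P1. These age calls depended on single libraries. In P2 the value was -0.66 (adjusted p = 0.0652) without replicate 2 of D49, -1.48 without replicate 3 of D49 and -0.79 (adjusted p = 0.0854) without replicate 2 of D5, and in P1 the call was lost in 5 of 6 fits that left out 1 library, with adjusted p = 0.0125 to 0.155.

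Shmt2 (chr10:127517123-127522444), the mitochondrial form, had 82.8, 97.5 and 66.3 CPM in P2 at D5, 66.9, 83.2 and 65.0 CPM at D12 and 62.1, 48.6 and 46.9 CPM at D49. The P1 libraries held 259, 254 and 236 CPM at D5, 201, 125 and 174 CPM at D12 and 165, 135 and 191 CPM at D49. Again no P2 library overlapped the P1 libraries of its age. Its log2 fold change, P2 over P1, was -1.57 ± 0.16 (SE, adjusted p = 6.23e-07) at D5, -1.34 ± 0.16 (SE, adjusted p = 2.14e-06) at D12 and -1.46 ± 0.16 (SE, adjusted p = 1.76e-06) at D49. The change from D5 to D49 was smaller, -0.52 ± 0.16 (SE, adjusted p = 0.0259) in P2 and -0.62 ± 0.15 (SE, adjusted p = 0.0104) in P1. The P2 value was -0.42 with replicate 1 alone in P2 at D49. Leaving out 1 library lost the P2 call in 4 of 6 fits (adjusted p up to 0.129) and the P1 call in 2 (adjusted p up to 0.0871).

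Mthfd2 (chr6:83305691-83325908), a mitochondrial folate enzyme that is low in most resting adult tissues, differed less between the progenitors. It averaged 94.1 ± 8.54 CPM in P2 and 111 ± 9.61 CPM in P1 at D5, 50.8 ± 2.48 CPM in P2 and 66.8 ± 7.64 CPM in P1 at D12, and 45.0 ± 5.52 CPM in P2 and 71.8 ± 13.1 CPM in P1 at D49 (SD, n = 3 each). The groups did not overlap at any age, and the log2 fold change, P2 over P1, was -0.20 ± 0.15 (SE, adjusted p = 0.428) at D5, -0.52 ± 0.15 (SE, adjusted p = 0.0101) at D12 and -0.49 ± 0.15 (SE, adjusted p = 0.0223) at D49. The D12 call was lost with the low-gene share as a covariate (adjusted p = 0.0736). The D49 call was lost in 2 of the 6 fits that left out 1 library, among them that without replicate 2 of P1 at D49 (adjusted p = 0.121). From D5 to D12 Mthfd2 fell by 0.93 ± 0.15 (SE, adjusted p = 0.000585) in P2 and 0.61 ± 0.15 (SE, adjusted p = 0.0101) in P1 on the log2 scale. The P1 fall was not called with the low-gene covariate, at -0.66 (adjusted p = 0.0579), or without replicate 3 of P1 at D5 (adjusted p = 0.0526). From D12 to D49 the fitted change was 0.0071 ± 0.15 (SE, adjusted p = 0.983) in P2 and -0.026 ± 0.15 (SE, adjusted p = 0.922) in P1, with means on the scaling of the fit of 52.1 ± 2.76 CPM at D12 and 52.2 ± 7.65 CPM at D49 in P2 and 74.8 ± 4.39 CPM at D12 and 73.6 ± 14.5 CPM at D49 in P1 (SD, n = 3 each). These differ in sign from the levels above, and neither change passed the test.

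Asns and Pck2 moved in opposite directions with age. Asns (chr6:7675169-7693254) had 2.27, 6.21 and 7.91 CPM in P2 at D5, 0.895, 1.28 and 0.836 CPM at D12 and 0, 0 and 1.01 CPM at D49, where it had 5 reads in all. P1 cells had 27.7, 20.4 and 23.6 CPM at D5, 6.17, 8.96 and 13.5 CPM at D12 and 3.67, 1.37 and 0.174 CPM at D49. The ages did not overlap in P1, and P2 lay below P1 at D5 and D12 but overlapped it at D49. From D5 to D49 its log2 fold change was -3.53 ± 0.87 (SE, adjusted p = 0.00667) in P2 and -3.83 ± 0.69 (SE, adjusted p = 0.000654) in P1. The P2 value became -7.72 without replicate 3, which holds all of the D49 reads, and -7.77 without replicates 2 and 3, so its size is uncertain. P2 over P1, the log2 fold change was -2.09 ± 0.61 (SE, adjusted p = 0.0229) at D5, -3.34 ± 0.73 (SE, adjusted p = 0.00119) at D12 and -1.79 ± 0.97 (SE, adjusted p = 0.174) at D49. The D5 call was lost in 5 of the 6 fits that left out 1 library (adjusted p up to 0.126), and the D12 call with the low-gene share as a covariate (adjusted p = 0.0992). P2 at D12, at 0.836 to 1.28 CPM, also held few reads, so the size of the D12 value is uncertain.

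Pck2 (chr14:55540266-55551242) was the one of the 10 that rose with age. It had 5.37, 2.76 and 4.15 CPM in P2 at D5, 6.26, 15.4 and 6.06 CPM at D12 and 35.2, 16.9 and 20.3 CPM at D49. In P1 it had 2.54, 2.39 and 1.46 CPM at D5, 9.59, 5.38 and 6.96 CPM at D12 and 33.0, 28.2 and 29.3 CPM at D49. No library of one age overlapped those of the next in either progenitor. The log2 fold change, D49 over D5, was 2.65 ± 0.38 (SE, adjusted p = 3.91e-05) in P2 and 3.81 ± 0.40 (SE, adjusted p = 1.55e-06) in P1, and it stayed called in both in each fit that left out 1 library (adjusted p up to 0.000619 and 3.07e-05). Pck2 was not called between P2 and P1 at any age, with log2 fold changes of 0.99 ± 0.43 (SE, adjusted p = 0.139) at D5, 0.21 ± 0.37 (SE, adjusted p = 0.667) at D12 and -0.17 ± 0.34 (SE, adjusted p = 0.743) at D49. With replicate 1 alone in P2 at D49 the Pck2 value was 3.07 with age in P2 and 0.24 against P1.

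Bcat1 (chr6:144993835-145076184) had the largest log2 difference of the 10 genes between the progenitors at D5. It had 4.13, 2.3001 and 8.31 CPM in P2 at D5, 4.70, 9.41 and 4.39 CPM at D12 and 0.573, 0.296 and 1.61 CPM at D49. Levels in P1 were 54.5, 35.1 and 33.8 CPM at D5, 39.9, 22.4 and 23.0 CPM at D12 and 30.2, 31.9 and 33.2 CPM at D49. The highest P2 library of any age lay below the lowest P1 library. The log2 fold change, P2 over P1, was -3.005 ± 0.40 (SE, adjusted p = 2.19e-05) at D5, -2.32 ± 0.40 (SE, adjusted p = 0.000117) at D12 and -4.90 ± 0.52 (SE, adjusted p = 9.91e-07) at D49. With age, D49 over D5, Bcat1 was called in P2 at -2.28 ± 0.58 (SE, adjusted p = 0.00824) and not in P1 at -0.38 ± 0.35 (SE, adjusted p = 0.583), and the difference between those changes, -1.89 ± 0.69 (SE, adjusted p = 0.222), did not pass the test. The P2 call was lost without replicate 3 of P2 at D5 (adjusted p = 0.0679). With replicate 1 alone in P2 at D49 the log2 fold change with age was -3.09. The P2 libraries at D49, at 0.296 to 1.61 CPM, held few reads, so the size of the D49 values is uncertain.

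Gcat (chr15:79030901-79042531) was nearly undetected in P2 at D49. It had 34.1, 42.1 and 26.7 CPM in P2 at D5, 20.1, 16.04 and 12.7 CPM at D12 and 1.43, 0 and 0 CPM at D49, where replicate 1 held 5 reads and the others none. P1 libraries had 63.3, 58.6 and 51.7 CPM at D5, 33.1, 26.7 and 23.8 CPM at D12 and 2.29, 12.5 and 10.8 CPM at D49. Each age lay below the one before it in both progenitors, with no overlap. From D5 to D49 the log2 fold change was -6.12 ± 0.64 (SE, adjusted p = 6.74e-07) in P2 and -2.76 ± 0.41 (SE, adjusted p = 8.93e-05) in P1. The difference between those changes, -3.36 ± 0.85 (SE, adjusted p = 0.099), did not pass the threshold. P2 over P1, Gcat had -0.72 ± 0.37 (SE, adjusted p = 0.229) at D5 and -0.91 ± 0.39 (SE, adjusted p = 0.0689) at D12, neither called, and -4.08 ± 0.71 (SE, adjusted p = 0.000285) at D49. Without replicate 1 of P2 at D49, which holds all of its reads in that group, the fitted values were -10.37 with age in P2 and -8.35 against P1. With replicate 1 alone in that group they were -4.57 with age and -2.55 against P1, so their size is not well determined.

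**Figure D2:**
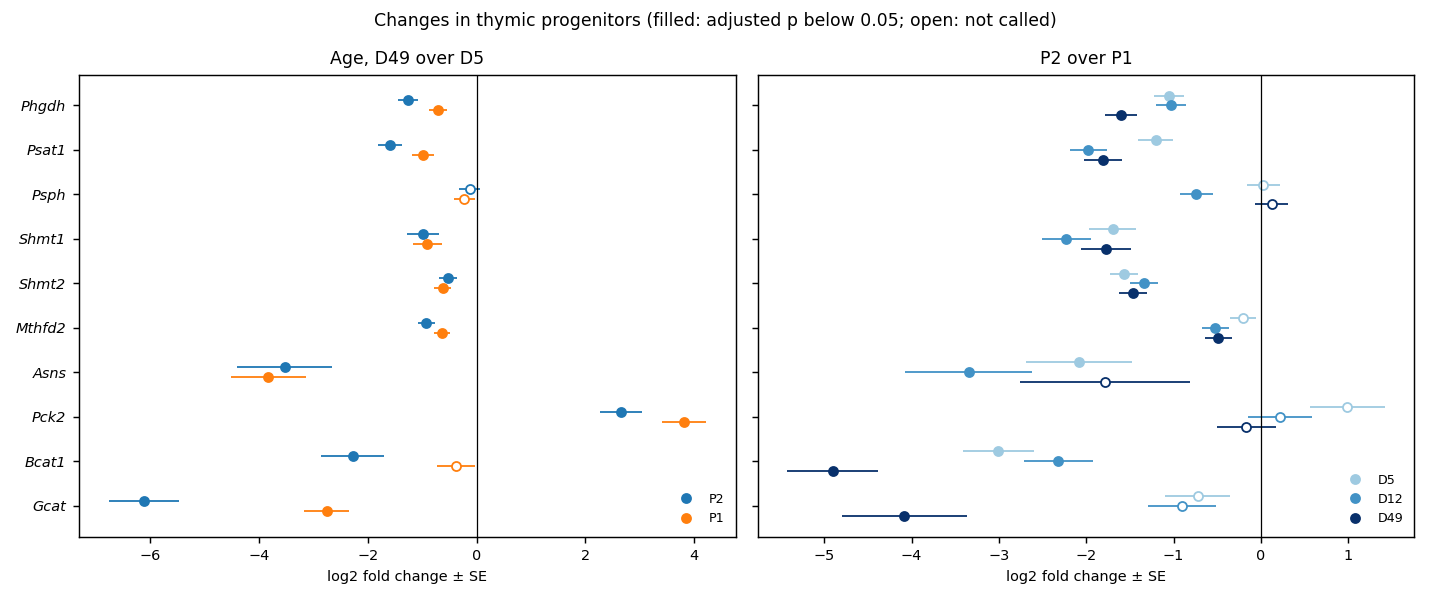
Log2 fold changes with SE (horizontal axis) of the 10 genes, D49 over D5 in P2 and P1 (left) and P2 over P1 at 3 ages (right). Filled points passed an adjusted p of 0.05. Pck2 is the one gene right of 0 with age in both progenitors, at 2.65 in P2 and 3.81 in P1, and no filled point lies right of 0 for P2 over P1.

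Other genes of the same pathways were counted in lists chosen by function. These lists, also used below for age and tissues, were drawn up with earlier results of these data known. Their counts are therefore a description and no independent test. Of all genes tested, 8.40%, 23.8% and 12.9% were lower and 6.79%, 17.6% and 16.6% higher in P2 than in P1 at D5, D12 and D49, and counts near these shares say nothing of a list. Of 16 tested folate cycle genes, 7, 6 and 5 were lower in P2 than in P1 at D5, D12 and D49, and 0, 1 and 0 higher. Slc19a1, the reduced folate carrier, had a log2 fold change of -2.07 ± 0.16 (SE, adjusted p = 2.08e-08) at D49, and Mthfd1, the cytosolic trifunctional folate enzyme, -1.55 ± 0.21 (SE, adjusted p = 1.79e-05). Tyms, thymidylate synthase, had -1.43 ± 0.22 (SE, adjusted p = 8.07e-05). Of 12 purine synthesis genes, 8, 9 and 9 were lower in P2 at the 3 ages and 0 higher, among them Gart, which uses a one-carbon unit to build the purine ring, at -1.34 ± 0.15 (SE, adjusted p = 1.3e-06) at D49. Of 19 cytosolic tRNA synthetase genes, 10, 12 and 13 were lower and 0 higher, with Gars, for glycine, at -1.14 ± 0.12 (SE, adjusted p = 5.95e-07) at D49. Gcsh, a carrier protein of the glycine cleavage system, had -1.86 ± 0.30 (SE, adjusted p = 0.000103), and of the 11 tested genes of glycine and serine use 2, 3 and 2 were lower and 0, 1 and 0 higher at D5, D12 and D49. Of 8 tested genes of glycolysis and pyruvate metabolism next to PCK2, 6 were lower at each age and 0 higher. Of 11 genes of branched-chain amino acid breakdown, 1, 3 and 4 were lower and 0, 2 and 1 higher, near the shares over all genes at D5 and D12. Myc, which encodes a growth-associated transcription factor that binds the E-box, was lower in P2 at each age, by 0.58 ± 0.16 (SE, adjusted p = 0.0173) at D5, 0.63 ± 0.16 (SE, adjusted p = 0.00447) at D12 and 0.56 ± 0.17 (SE, adjusted p = 0.0158) at D49 on the log2 scale. At D49 the median log2 fold change, P2 over P1, was -0.43 in the folate cycle list, -0.61 in the purine list, -0.59 in the tRNA synthetase list and -0.17 in the branched-chain list, beside 0.10 over all genes.

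The neighbouring genes were also counted with age, D49 against D5. Of all genes tested, 11.1% fell and 14.7% rose in P2, and 6.50% fell and 4.06% rose in P1. In the folate cycle list 4 of 16 genes fell and 1 rose in P2, and 3 fell and 0 rose in P1. Of 12 purine synthesis genes, 6 fell in P2 and 7 in P1, and 0 rose in either. Of 21 tested genes of the ATF4 response, 3 rose and 4 fell in P2, and 1 rose and 2 fell in P1, counts near the shares over all genes. Stc2, a secreted glycoprotein of that list, fell, with log2 fold changes of -4.71 ± 0.98 (SE, adjusted p = 0.00184) in P2 and -6.23 ± 1.04 (SE, adjusted p = 0.000322) in P1, while Ddit4, an inhibitor of mTORC1 signalling, rose by 0.92 ± 0.28 (SE, adjusted p = 0.0223) in P2 and 1.57 ± 0.28 (SE, adjusted p = 0.000647) in P1. Of the 8 genes next to PCK2, 3 fell in P2 and 1 in P1 and 0 rose, including Pkm, pyruvate kinase, at -0.58 ± 0.10 (SE, adjusted p = 0.000371) in P2 and -0.51 ± 0.10 (SE, adjusted p = 0.00185) in P1. Markers of other cells moved with age too. The sum of 10 macrophage and monocyte markers was 27.8 CPM in replicate 1 and 101 and 126 CPM in replicates 2 and 3 of P2 at D49, against 8.26 to 17.9 CPM in P2 at D5, and its part in the age results was not tested.

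In the tissues, Asns was the gene of the 10 called higher than in spleen most often. It was called in 4 of 4 tissues of the DT-labelled arm and in 3 of 4 of the PBS-labelled arm, where lung was not called. Against spleen, the DT-labelled arm gave 1 higher gene in VAT (of all 17731 genes tested, 8.85% called, 5.70% higher and 3.15% lower), 1 in ear skin (22.1% called, 10.5% higher and 11.6% lower), 1 in liver (13.3% called, 8.18% higher and 5.08% lower) and 2 in lung (14.6% called, 8.48% higher and 6.15% lower), and 0 lower in any. The PBS-labelled arm gave 3 higher in VAT (14.9% called, 8.67% higher and 6.27% lower), 4 in ear skin (23.7% called, 11.1% higher and 12.5% lower), 1 in liver (17.0% called, 9.15% higher and 7.85% lower) and 0 in lung (15.9% called, 8.14% higher and 7.79% lower), and 1 lower gene, Shmt1, in liver and in lung. The tissues of an arm share the same spleen libraries. A single call among 10 genes is near the share of all genes called higher. The 2 in DT-labelled lung, 3 in PBS-labelled VAT and 4 in PBS-labelled ear skin lie above it. The 10 genes were not tested as a group, so these counts say little of them as a group.

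Asns had 10.1, 18.6, 11.6 and 4.85 CPM in DT-labelled VAT, 8.76, 13.4 and 15.7 CPM in ear skin, 18.5, 6.96 and 10.4 CPM in liver and 14.2, 14.1 and 5.63 CPM in lung, against 3.62, 2.60 and 0.261 CPM in DT-labelled spleen. In the PBS-labelled arm it had 21.7, 41.1, 20.9 and 19.2 CPM in VAT, 19.4, 15.5 and 19.9 CPM in ear skin, 7.81, 12.0 and 11.4 CPM in liver and 9.28, 7.83 and 6.28 CPM in lung, against 3.88, 2.35 and 5.44 CPM in PBS-labelled spleen. Each library of the 4 tissues lay above all spleen libraries of its arm. In the DT-labelled arm the log2 fold change over spleen was 2.35 ± 0.51 (SE, adjusted p = 0.00171) in VAT, 2.61 ± 0.53 (SE, adjusted p = 0.00045) in ear skin, 2.44 ± 0.53 (SE, adjusted p = 0.00132) in liver and 2.35 ± 0.53 (SE, adjusted p = 0.00177) in lung. In the PBS-labelled arm it was 2.75 ± 0.49 (SE, adjusted p = 8.49e-05) in VAT, 2.36 ± 0.50 (SE, adjusted p = 0.000602) in ear skin, 1.46 ± 0.50 (SE, adjusted p = 0.0402) in liver and 1.05 ± 0.51 (SE, adjusted p = 0.168) in lung, where it was not called.

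Leaving out single libraries bore on liver. The Asns call in PBS-labelled liver was lost in 5 of 6 such fits (adjusted p up to 0.168), among them the fit without replicate 1 of PBS-labelled spleen (adjusted p = 0.124). All 4 calls in the DT-labelled arm and those of PBS-labelled VAT and ear skin held in each such fit (adjusted p up to 0.0226). Without replicate 7 of DT-labelled VAT, the library with fibroblast transcripts, Asns had a log2 fold change of 2.33 over spleen (adjusted p = 0.0039). Ear skin libraries had 27128 to 32004 detected genes after thinning, against 20145 to 25788 in spleen. In DT-labelled ear skin, relative log expression size factors moved the log2 fold changes of the 10 genes by 0.16 at the median and turned the split of all called genes to 2320 higher and 1483 lower, against 1864 and 2062 with TMM. The Asns value there was 2.77. The cell cycle sum lay above spleen without overlap in liver and lung of both arms and in PBS-labelled ear skin, and overlapped spleen in VAT of both arms and in DT-labelled ear skin. It was 1580.4 to 3436 CPM in DT-labelled VAT, 2882 to 3547 CPM in liver and 3132 to 4614 CPM in lung, against 1309 to 1825 CPM in DT-labelled spleen. In the PBS-labelled arm it was 1650.0 to 3051 CPM in VAT, 3163 to 4674 CPM in liver and 2145 to 5776 CPM in lung, against 1163 to 1977 CPM in spleen. Over the 10 tissue group means, which share their normalisation, the log2 level of Asns had a Pearson correlation of 0.54 with the cell cycle genes.

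**Figure D3:**
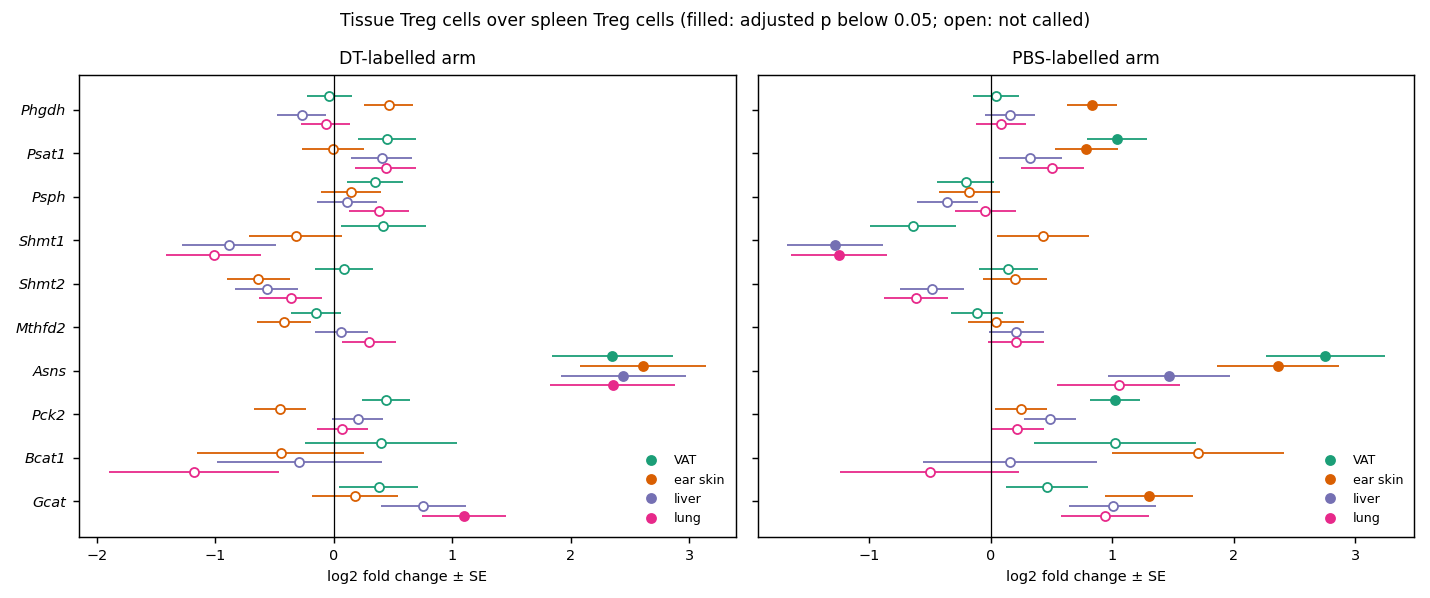
Log2 fold changes with SE (horizontal axis) of the 10 genes in Treg cells of VAT, ear skin, liver and lung over spleen, DT-labelled arm (left) and PBS-labelled arm (right). Filled points passed an adjusted p of 0.05. The Asns points lie between 1.05 and 2.75 and are filled in 7 of 8 comparisons.

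Pck2 was high in all tissue Treg groups and highest in VAT. It had 107, 126, 122 and 103 CPM in DT-labelled VAT, against 98.7, 68.5 and 91.7 CPM in DT-labelled spleen. It had 139, 187, 164 and 158 CPM in PBS-labelled VAT, against 49.5, 88.1 and 104 CPM in PBS-labelled spleen. VAT and spleen did not overlap in either arm, but only the PBS-labelled arm passed the test, with log2 fold changes over spleen of 0.44 ± 0.20 (SE, adjusted p = 0.208) in the DT-labelled and 1.02 ± 0.21 (SE, adjusted p = 0.000433) in the PBS-labelled arm. The difference between these, -0.58 ± 0.28 (SE, adjusted p = 0.757), did not pass the test, and 0 of the 10 genes were called in it by edgeR (0.0169% of all genes called). In that test 2 of the 10 had an unadjusted p below 0.05, and DESeq2 called 0. The share of all genes at that unadjusted threshold is not given here, so the count says nothing of the 10 as a group. Without replicate 1 of PBS-labelled spleen, which had the lowest Pck2 of that group, the PBS-labelled value was 0.75 (adjusted p = 0.008). In the other 3 tissues Pck2 averaged 57.5 ± 4.33, 97.2 ± 2.39 and 89.0 ± 10.9 CPM in DT-labelled ear skin, liver and lung and 88.7 ± 23.1, 111 ± 14.4 and 91.6 ± 15.01 CPM in the PBS-labelled arm (SD, n = 3 each), and was not called against spleen.

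Of the serine synthesis genes, Psat1 and Phgdh passed the test against spleen in the PBS-labelled arm and not in the DT-labelled arm. Psat1 had 115, 157, 142 and 189.7 CPM in PBS-labelled VAT and 170.1, 98.9 and 83.7 CPM in PBS-labelled ear skin, against 82.6, 49.7 and 92.0 CPM in PBS-labelled spleen. Its log2 fold change was 1.04 ± 0.25 (SE, adjusted p = 0.00271) in VAT and 0.79 ± 0.26 (SE, adjusted p = 0.0259) in ear skin, and 0.45 ± 0.24 (SE, adjusted p = 0.321) and -0.0063 ± 0.26 (SE, adjusted p = 0.988) in the DT-labelled arm. Whether the arms differ in this was tested for VAT and not for ear skin. In VAT the difference was -0.59 ± 0.34 (SE, adjusted p = 0.79). Phgdh had 226, 142 and 168 CPM in PBS-labelled ear skin, against 83.3, 112 and 131 CPM in PBS-labelled spleen, a log2 fold change of 0.84 ± 0.21 (SE, adjusted p = 0.00272), and the libraries did not overlap. In the DT-labelled arm it had 147, 166 and 190.0 CPM in ear skin, against 152, 141 and 105 CPM in spleen, a log2 fold change of 0.46 ± 0.20 (SE, adjusted p = 0.0997), and DT-labelled over PBS-labelled ear skin it was -0.060 ± 0.17 (SE, adjusted p = 0.967). In PBS-labelled ear skin 1 library, replicate 1, was the highest of the 3 for each of the 10 genes but Asns. Without it the log2 fold change over spleen was 0.41 (adjusted p = 0.299) for Psat1, 0.80 (adjusted p = 0.14) for Gcat and 0.62 (adjusted p = 0.0467) for Phgdh. Without replicate 1 of PBS-labelled spleen the ear skin call of Psat1 was lost (adjusted p = 0.0624). Leaving out replicate 2 of PBS-labelled spleen also lost the ear skin calls of Psat1 (adjusted p = 0.179) and Gcat (adjusted p = 0.0503). Psph was not called in any tissue, with group means from 37.1 to 49.5 CPM.

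Gcat was higher in lung Treg cells of the DT-labelled arm, with 33.5, 31.2 and 30.3 CPM in lung and 21.4, 10.8 and 13.03 CPM in spleen and a log2 fold change of 1.097 ± 0.35 (SE, adjusted p = 0.0325), a call that was lost in 5 of the 6 fits that left out 1 library (adjusted p up to 0.178). In PBS-labelled ear skin Gcat had 41.9, 24.0 and 14.0 CPM, against 16.8, 9.20 and 9.70 CPM in spleen, and a log2 fold change of 1.3002 ± 0.36 (SE, adjusted p = 0.00751). PBS-labelled liver, with 21.9, 21.6 and 26.1 CPM, gave 1.004 ± 0.36 (SE, adjusted p = 0.05), and lung, with 18.6, 25.6 and 22.1 CPM, 0.94 ± 0.36 (SE, adjusted p = 0.0721), neither called. Without replicate 1 of PBS-labelled spleen both were called, at 1.29 (adjusted p = 0.0371) in liver and 1.22 (adjusted p = 0.0496) in lung. Beside these, the cell cycle sum was above spleen in liver and lung of both arms, with the values given for Asns, and was 2049.5 to 4414 CPM in PBS-labelled ear skin, against 1163 to 1977 CPM in PBS-labelled spleen. Over the 10 tissue group means, which share their normalisation, the log2 level of Gcat had a Pearson correlation of 0.92 with the cell cycle genes, the highest of the 10 genes, and their part in the Gcat results was not tested.

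Shmt1 was the gene called lower outside the spleen. It had 15.4, 17.9 and 17.5 CPM in PBS-labelled liver and 18.3, 16.9 and 16.5 CPM in PBS-labelled lung, against 63.1, 34.5 and 30.5 CPM in PBS-labelled spleen. The libraries did not overlap, and the log2 fold change was -1.28 ± 0.39 (SE, adjusted p = 0.0213) in liver and -1.25 ± 0.39 (SE, adjusted p = 0.0256) in lung. Both calls were lost without replicate 1 of PBS-labelled spleen, the library with low Foxp3, where the values were -0.94 (adjusted p = 0.172) and -0.91 (adjusted p = 0.193), and in 2 of the other 5 such fits in liver and 3 of the other 5 in lung. The lung call was lost without replicate 1 (adjusted p = 0.0533) and without replicate 2 (adjusted p = 0.073) of PBS-labelled lung, the libraries that stood apart. The log2 level of Shmt1 had a Pearson correlation of -0.64 with the cell cycle genes over the 10 tissue group means, and the part of the cell cycle sum in the Asns and Shmt1 results was not tested. In the DT-labelled arm Shmt1 had 17.6, 8.40 and 18.2 CPM in liver and 15.98, 10.8 and 13.7 CPM in lung, against 32.8, 24.4 and 25.8 CPM in spleen, and its log2 fold changes, -0.88 ± 0.40 (SE, adjusted p = 0.152) in liver and -1.01 ± 0.40 (SE, adjusted p = 0.0898) in lung, were not called. Shmt2, Mthfd2 and Bcat1 were not called in any tissue, with group means of 58.8 to 123 CPM for Shmt2, 61.9 to 109 CPM for Mthfd2 and 4.53 to 20.0 CPM for Bcat1.

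**Figure D4:**
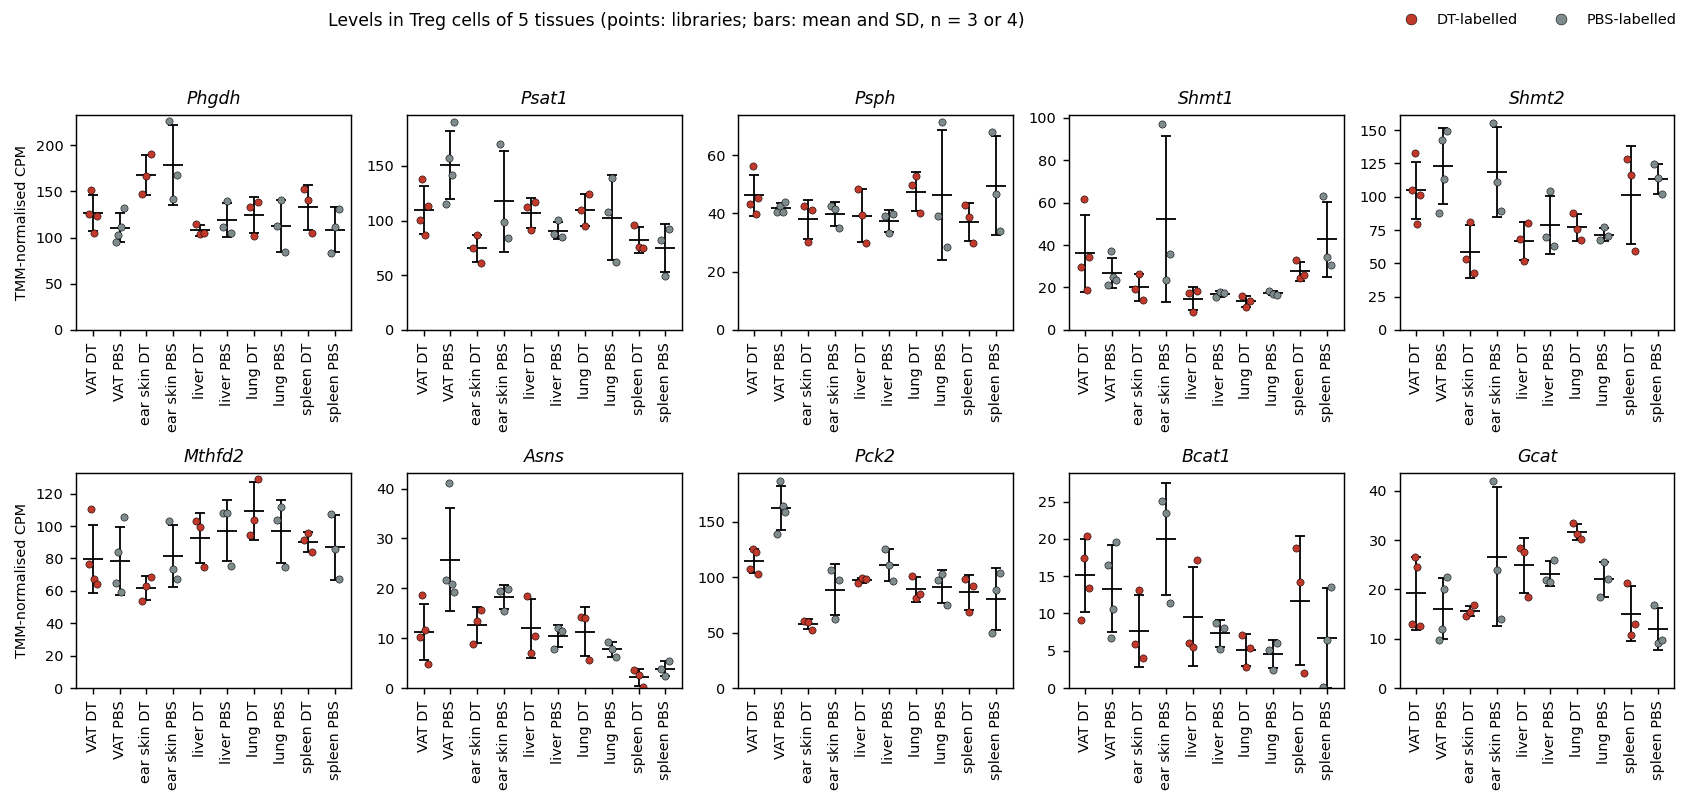
TMM-normalised CPM (vertical axis, linear from 0) of the 10 genes in each of the 32 tissue libraries, with the DT-labelled arm left of the PBS-labelled arm and spleen at the right. Points are libraries and bars the mean and SD of 3 or 4. Asns is lowest in spleen, and Pck2 is highest in PBS-labelled VAT at 162 ± 19.9 CPM.

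Among the neighbouring pathway genes, a part of the ATF4 response list was higher outside the spleen. Of 28 tested genes 9, 9, 8 and 9 were higher in DT-labelled VAT, ear skin, liver and lung than in spleen (of all genes tested, 5.70%, 10.5%, 8.18% and 8.48%) and 0, 2, 0 and 0 lower. In the PBS-labelled arm 8, 10, 8 and 7 were higher (of all genes tested, 8.67%, 11.1%, 9.15% and 8.14%) and 1, 0, 0 and 0 lower. The list's median log2 fold change was from 0.52 to 1.24 over the 8 comparisons, beside -0.058 to 0.14 over all genes. Atf4 itself averaged 283 ± 53.0 CPM in PBS-labelled VAT and 125 ± 9.34 CPM in PBS-labelled spleen (SD, n = 4 and 3), with a log2 fold change of 1.204 ± 0.16 (SE, adjusted p = 7.62e-07) there and 1.15 ± 0.16 (SE, adjusted p = 3.2e-06) in DT-labelled VAT. Ppp1r15a, which encodes a regulator of eIF2 dephosphorylation, had 4.46 ± 0.31 (SE, adjusted p = 9.84e-13) in PBS-labelled VAT, and Slc3a2, a subunit of amino acid transporters, 1.07 ± 0.18 (SE, adjusted p = 2.92e-05). Libraries of a tissue share its preparation and sort. In all comparisons with spleen, those of Asns included, tissue of origin and preparation cannot be told apart.

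Got1, which encodes the cytosolic enzyme that interconverts aspartate and oxaloacetate, was higher than in spleen in all 8 comparisons, with log2 fold changes from 1.42 in DT-labelled VAT to 4.07 in DT-labelled liver. Glul, glutamine synthetase, had 2.27 ± 0.32 (SE, adjusted p = 4.24e-06) in DT-labelled and 2.52 ± 0.32 (SE, adjusted p = 2.93e-07) in PBS-labelled VAT. Of the 12 tested aspartate, asparagine and glutamine genes, 2 and 3 were higher and 0 lower in DT-labelled and PBS-labelled VAT, where 5.70% and 8.67% of all genes were higher. Folate cycle genes gave few calls, at most 2 higher and 3 lower of 16 in any tissue. Slc19a1 was lower than in spleen in both arms of liver, at -0.96 ± 0.26 (SE, adjusted p = 0.0111) and -0.93 ± 0.26 (SE, adjusted p = 0.012) in the DT-labelled and PBS-labelled arm. Eno3, a muscle-type enolase in the list of genes next to PCK2, was lower than in spleen in all 8 comparisons, with -1.97 ± 0.35 (SE, adjusted p = 9.03e-05) in PBS-labelled VAT, where Pkm was higher at 0.60 ± 0.14 (SE, adjusted p = 0.00244).

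Sums of markers of other cells differed between tissues as well. In VAT the sum of 5 mesothelial markers was 30.6 to 64.4 CPM in the DT-labelled and 118 to 183 CPM in the PBS-labelled arm, against 5.19 to 9.78 and 8.25 to 8.81 CPM in spleen of the same arms, and it rested on Lrrn4, at a mean of 44.8 and 135 CPM, while Msln averaged 0.506 and 0.215 CPM and Krt19 0.0551 and 0.0468 CPM in DT-labelled and PBS-labelled VAT. In liver the sum of hepatocyte markers was 11.1 to 28.3 CPM in the DT-labelled and 11.9 to 28.8 CPM in the PBS-labelled arm, with Alb at a mean of 13.9 and 8.01 CPM, against 0 to 2.87 and 1.37 to 2.84 CPM in spleen of the same arms. In ear skin the sum of 6 fibroblast markers was 18.6 to 28.5 and 16.4 to 22.04 CPM in the DT-labelled and PBS-labelled arm, against 0.799 to 3.62 and 1.46 to 8.04 CPM in spleen of those arms. B cell markers overlapped between VAT and spleen but spread widely within VAT, at 801 to 6709 CPM in the DT-labelled and 441 to 6179 CPM in the PBS-labelled arm, and rested on Ighm. The part of these sums in the tissue results was not tested.

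Between the DT-labelled and PBS-labelled arms, edgeR called 0 of the 10 genes in any of the 5 tissues. Of all genes tested within a tissue, 0.124% were called in VAT, 0.411% in ear skin and 0% in liver, lung and spleen. An unadjusted p below 0.05 was reached by 3 of the 10 in VAT, 6 in ear skin and 0 in liver, lung and spleen, and DESeq2 called 1 of the 10 in ear skin and 0 in the other 4 tissues. Shares of all genes at the unadjusted threshold and in DESeq2 are not given here, so these counts say nothing of the 10 genes as a group. In VAT, Asns had 10.1, 18.6, 11.6 and 4.85 CPM in the DT-labelled and 21.7, 41.1, 20.9 and 19.2 CPM in the PBS-labelled arm, and Pck2 had 107, 126, 122 and 103 CPM in the DT-labelled and 139, 187, 164 and 158 CPM in the PBS-labelled arm. These 2 genes did not overlap between the arms. The share of all genes without overlap was not counted, here or for ear skin and lung below, so a lack of overlap says little of the 10 genes. Their log2 fold changes, DT over PBS, were -1.15 ± 0.38 (SE, adjusted p = 0.414) for Asns, -0.46 ± 0.12 (SE, adjusted p = 0.322) for Pck2 and -0.43 ± 0.17 (SE, adjusted p = 0.556) for Psat1. Without replicate 7 of DT-labelled VAT the values were -1.18 (adjusted p = 0.544) for Asns and -0.52 (adjusted p = 0.325) for Pck2.

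In ear skin all 10 genes had a negative log2 fold change, DT over PBS, from -1.32 for Shmt1 to -0.060 for Phgdh, with a median of -0.60 beside -0.011 over all genes tested. The smallest adjusted p was that of Shmt2, with 52.9, 80.7 and 42.9 CPM in the DT-labelled and 156, 111 and 89.5 CPM in the PBS-labelled arm and a log2 fold change of -0.97 ± 0.25 (SE, adjusted p = 0.1). Pck2 had 60.6, 59.4 and 52.6 CPM in the DT-labelled and 106, 62.4 and 97.7 CPM in the PBS-labelled arm, with a log2 fold change of -0.58 ± 0.20 (SE, adjusted p = 0.282). Pck2 did not overlap between the arms there under either scaling, while Shmt2 did not overlap on the scaling over all libraries but did on that of the fit. Replicate 1 of the PBS-labelled arm was the highest library of that arm for each of the 10 genes but Asns. Without it the log2 fold change of Shmt2 was -0.74 (adjusted p = 0.49) and that of Shmt1 -0.52 (adjusted p = 0.88). The shared sign and the median of the 10 genes are not given without that library, nor is the share of all genes with a negative value. The cell cycle sum in ear skin was 1559.6 to 2049 CPM in the DT-labelled and 2049.5 to 4414 CPM in the PBS-labelled arm, and its part in these differences was not tested. In lung the arms did not overlap for Gcat, with 33.5, 31.2 and 30.3 CPM in the DT-labelled and 18.6, 25.6 and 22.1 CPM in the PBS-labelled arm (0.48 ± 0.25, SE, adjusted p = 1), or for Shmt1, and neither was called. In liver, lung and spleen the largest log2 fold change of the 10 in size was 0.37 ± 0.52 (SE, adjusted p = 0.999) for Bcat1, 0.50 ± 0.43 (SE, adjusted p = 1) for Asns and -0.83 ± 0.80 (SE, adjusted p = 0.933) for Asns.

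Set side by side over the 16 groups, the 10 genes followed different orders. Asns was highest in PBS-labelled VAT at 25.7 ± 10.3 CPM (SD, n = 4) and in P1 at D5 at 23.9 ± 3.68 CPM (SD, n = 3), and lowest in P2 at D49 at 0.335 ± 0.581 CPM, and 14 of the 15 neighbouring pairs in that order overlapped. Pck2 ran from 2.13 ± 0.583 CPM in P1 at D5 to 162 ± 19.9 CPM in PBS-labelled VAT, and all thymus libraries, at 35.2 CPM or less, lay below all tissue libraries, at 49.5 CPM or more. For Pck2, 10 of the 15 neighbouring pairs overlapped, fewer than for any other of the 10 genes. Psat1, Phgdh, Shmt1, Shmt2, Mthfd2, Bcat1 and Gcat were highest in P1 at D5, and all of these but Shmt1 were lowest in P2 at D49. Shmt1 was lowest in DT-labelled lung at 13.5 ± 2.62 CPM. For Psph and Mthfd2 all 15 neighbouring pairs overlapped, and their highest group means were 2.01 and 2.46 times their lowest. For the others this ratio was 4.75 for Shmt2, 5.46 for Phgdh, 8.04 for Psat1, 11.8 for Shmt1, 49.8 for Bcat1, 76.1 for Pck2, 76.7 for Asns and 121 for Gcat, where Asns and Gcat had 5 reads in their lowest group. Bcat1 averaged 0.826 CPM in its lowest group, P2 at D49, so its ratio rests on few reads too.

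**Figure D5:**
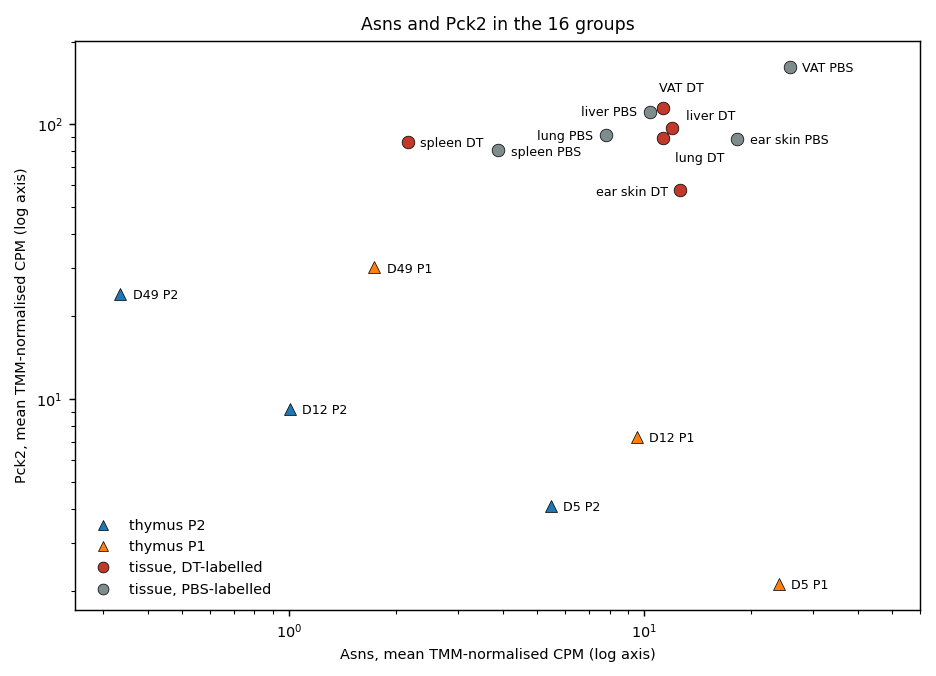
Group mean CPM of Asns (horizontal log axis) and Pck2 (vertical log axis) in the 16 groups, with triangles for thymus and circles for tissues. The thymus groups run from high Asns and low Pck2 at D5 to low Asns and higher Pck2 at D49, and the tissue groups, at 57.5 to 162 CPM of Pck2, lie above them, with both spleen groups at lower Asns.

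Per kilobase of exon, with CPM averaged over all 50 libraries, Phgdh was highest at 56.1 CPM per kilobase, followed by Shmt2 at 34.3, Psat1 at 31.1 and Mthfd2 at 23.5. Shmt1, Psph, Pck2, Gcat and Asns lay at 11.4, 10.96, 8.82, 7.29 and 3.72 CPM per kilobase, and Bcat1 was lowest at 1.44. In P1 at D5 the order was led by Phgdh at 125, Psat1 at 88.4 and Shmt2 at 80.3 CPM per kilobase. The length is the union of all annotated exons of a gene, longest for Bcat1 at 9.32 and Pck2 at 7.81 kilobases. The length of the transcripts present was not measured, so the order is approximate.

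Correlations of log2 levels over the 16 group means describe how alike the patterns were, and the groups share their normalisation. Among the 10 genes the highest was 0.89 between Shmt1 and Shmt2, followed by 0.84 between Psat1 and Shmt2. Asns and Pck2 had 0.19 over the 16 groups and -0.84 over the 6 thymus groups. Among 9662 other genes that reached a group mean of 10 CPM, those most like Asns were Prdx4 at 0.93, Hsd17b7 at 0.92 and Fkbp2 at 0.91. For Pck2 they were H2-Q6 at 0.98, Wls at 0.97 and Casp1 at 0.97. Psat1 was most like Ran at 0.97, Ctps at 0.97 and Ssrp1 at 0.96, and Phgdh most like Pole3 at 0.95, Cad at 0.94 and Nudc at 0.93. Shmt1 was most like Cmss1 at 0.98, Smyd2 at 0.95 and Ruvbl2 at 0.95, and Shmt2 most like Mybbp1a, Mrps28 and Pes1, each at 0.95. Bcat1 was most like Slc25a1 at 0.94, Cad at 0.93 and Pde4c at 0.91, and Gcat most like Pole at 0.91, Tk1 at 0.90 and Dsn1 at 0.89. Psph was most like Ctnnbl1 at 0.93 and Seh1l at 0.91, and Mthfd2, at 0.90, 0.87 and 0.87, had the weakest likeness, to Snrpg, Slc25a26 and Ndufb7.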

How the data were processed

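The authors deposited 1 table of raw counts per gene symbol for all 50 libraries. Per the submitters' processing notes, the tools were STAR 2.7.3a and featureCounts and the build mm10. Which annotation was counted, whether strand was used and how reads with several positions were treated is not given in the sources used here. The counts were tested with edgeR 4.0.16 in R 4.3.3: genes were kept by filterByExpr (minimum count 10, minimum total 15), libraries were scaled by TMM, and quasi-likelihood F tests were adjusted by Benjamini-Hochberg over all genes tested, with a threshold of 0.05. Fits were of 3 kinds: the 18 thymus libraries together, the 32 tissue libraries together for tissue against spleen, and each tissue alone for DT-labelled against PBS-labelled. Each SE is the absolute fold change on the log2 scale, divided by the root of its F value. Levels are CPM scaled by TMM over all 50 libraries. The low-gene share is the percent of counts in genes with a mean under 1 CPM. Detected genes were counted after thinning each library to 2521078 counts.

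The 10 genes and the pathway and marker lists were chosen with earlier results of these data known. All 10 genes are named, as are up to 4 called genes of a list in a comparison, by adjusted p, and, for each of the 10, the 3 genes with the highest correlation over the group means. Gene positions are those of GENCODE M21 on mm10. Alternatives were DESeq2 1.42.0, relative log expression size factors, no filter, a fit of the compared libraries alone, a replicate block, the low-gene share as a covariate, and leaving libraries out. The procedure was tested on simulated data. Replicate numbers are shared by some groups, but in no comparison did the deviations of every same-numbered pair correlate above 0.1, so no pairing was used. This does not exclude that same-numbered libraries share a mouse. Values of 2 single genes that these rules would name are not reported here.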

Additional observations from a re-analysis of the deposited data

Results flagged for a closer look

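The level of Asns in PBS-labelled VAT lay far from the others in 1 of 4 libraries. Replicate 2 had 41.1 CPM, against 21.7, 20.9 and 19.2 CPM in the other 3, a gap past Dixon's 95% limit for a group of 4. Without it, the log2 fold change of Asns over PBS-labelled spleen was 2.36 (edgeR adjusted p = 0.000862), and that of DT-labelled over PBS-labelled VAT was -0.84 (adjusted p = 0.929). The check covered 20 sets of 4 libraries, the 10 genes in each VAT group, and chance marks about 1 in 20.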

How the results depend on the processing

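None of the 10 genes reversed a called direction under any alternative run. For each gene and comparison, leaving out 1 library kept the side of the threshold in 1539 fits, lost the call in 64 and gained one in 17. DESeq2 kept 232 of 240, relative log expression factors 237, and the replicate block 148 of 175. The number of the 10 genes called moved as follows. For P1 at D12 against D5, 4 became 9 with the compared libraries alone, 9 with the replicate block, 2 with the low-gene share as a covariate and 2 to 4 without 1 library. For P1 at D49 against D12, 5 became 2 with that covariate and 3 to 4 without 1 library. For P2 at D12 against D5, 3 became 6 with the libraries alone, without a filter or with the block, and 5 with DESeq2 or the covariate. For P2 at D49 against D12, 3 became 1 with the libraries alone, 6 without a filter and 0 with the block. For P2 at D49 against D5, 9 became 5 with the libraries alone or the block. For P2 against P1 at D12, 8 became 5 with the covariate. Against spleen in the DT-labelled arm, VAT became 2 with the block. Ear skin became 2 with the libraries alone, DESeq2, no filter or relative log expression factors, 3 with the block and 1 to 2 without 1 library. Liver became 2 with the block and 1 to 2 without 1 library, and lung 4 with the libraries alone or the block and 1 to 2 without 1 library. In the PBS-labelled arm, ear skin became 2 with the libraries alone and 2 to 5 without 1 library, liver 1 with the libraries alone or the block and 0 to 3 without 1 library, and lung 2 with DESeq2, 0 with the block and 0 to 1 without 1 library. Between arms, VAT gave 1 without a filter, and ear skin 1 with DESeq2, 2 without a filter and 0 to 1 without 1 library. For the age difference between P2 and P1, 0 became 1 with DESeq2, 4 without a filter and 0 to 2 without 1 library. The share of all genes called under each setting is not given beside these counts. Whether a move is particular to the 10 genes can therefore not be told from them. The cause of these moves was not tested. Libraries with the same replicate number had correlations of their deviations from -0.219 to 0.267, and in no comparison above 0.1 in every pair. That limit is a choice and does not exclude that such libraries share a mouse, so whether the block is a pairing of the design is not known. Counts of 5 reads or fewer limit Asns and Gcat in P2 at D49. Low levels also limit Bcat1 in P2 at D49, at a mean of 0.826 CPM. The same holds for Asns in P2 at D12 and in P1 at D49, at means of 1.004 and 1.74 CPM.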
